A study of Homo sapiens with 6 samples.

Results

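Transcripts of 6 enzymes that make or break down coenzyme A (CoA) and nicotinamide adenine dinucleotide (NAD) were examined in FN3K KO and WT HepG2 cells. These were the pantothenate kinases PANK1 and PANK2, the pantetheinase VNN1, the cell surface nucleotidase NT5E, the NAD kinase NADK and the arylformamidase AFMID. The members were chosen by name, and all 6 were found once each among 6357 assembled loci. HepG2 is an established human line from a tumour of the liver, and in the KO cells CRISPR had been used to knock out FN3K, a kinase that phosphorylates sugar adducts on glycated proteins. Each group comprised 3 libraries from plates cultured in triplicate in EMEM with fetal bovine serum, with no further treatment described. Whether the WT and KO plates were grown at the same time is not given in the paper. How many clones the KO cells represent is not given in the sources used here, and since separate plates are the replicates, p-values measure the spread between plates. Values are FPKM, the fragments of a locus scaled to its transcript length and to the mapped fragments of its library, and library depth is unknown.

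CoA carries acyl groups for fatty acid and sterol synthesis, for the tricarboxylic acid cycle and for ketone production, and the liver holds large amounts of it. Pantothenate kinases catalyse the first and rate-limiting step of its synthesis from the vitamin pantothenate, and VNN1 recovers pantothenate, with release of cysteamine, from the CoA breakdown product pantetheine. NAD is made in liver from tryptophan, nicotinate and nicotinamide, is phosphorylated to NADP by NAD kinases, and outside the cell is degraded by surface enzymes, among them NT5E.

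FN3K itself had 27.7, 21.9 and 23.2 FPKM in the WT libraries and 0.782, 1.03 and 0.704 FPKM in the KO libraries, so the knocked-out transcript was low in every library labelled KO. Pearson correlations of log2(FPKM + 1) over all loci were 0.980 to 0.983 within the groups and 0.923 to 0.931 across them, and no library stood apart from its group. Of 12 hepatocyte markers, 9 were listed, 5 of which were called higher (adjusted p under 0.05 in limma), 1 lower (HNF4A) and 3 not (TF, SERPINA1 and AHSG). The 66.7% called compares with 57.7% of all loci, of which 21.2% were called higher and 36.5% lower. The summed level of the 9 listed markers, in which AFP had the largest change, was 10833 to 10960 FPKM in WT and 17269 to 18338 FPKM in KO. Of 10 markers of fibroblasts, endothelium and blood cells, only CD14 was listed, at 0.446 to 2.62 FPKM in WT and 13.1 to 16.1 FPKM in KO. The part of these shifts in the results below was not tested. In bulk RNA, fewer cells that express a gene and less RNA of it per cell cannot be told apart.

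Sequences were read around 2 of the members whose transcripts were higher in KO, PANK1 and AFMID. They are shown because PANK1 has 2 RefSeq start sites, and because AFMID shares its start region with a neighbour. The first is the PANK1 promoter nearest to the listed transcript, chr10:89643917-89644166 on the minus strand of GRCh38.p14 (RefSeq), the 250 bases before a start site that lies 29 bases from the start of the listed transcript. The second is chr17:78187234-78187316 on the plus strand of the same build, the 83 bases between the start of the TK1 transcript and that of the AFMID transcript. Capitals mark CCAAT in the PANK1 sequence and the GC box GGGCGG in the AFMID sequence, each searched on both strands.
PANK1 promoter: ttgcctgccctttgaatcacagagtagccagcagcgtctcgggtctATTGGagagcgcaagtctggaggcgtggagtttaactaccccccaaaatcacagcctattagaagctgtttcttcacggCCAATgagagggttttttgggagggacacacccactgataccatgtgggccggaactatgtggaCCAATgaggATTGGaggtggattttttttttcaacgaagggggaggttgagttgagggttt
AFMID and TK1 start region: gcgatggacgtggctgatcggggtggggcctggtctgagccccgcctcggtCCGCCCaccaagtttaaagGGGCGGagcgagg
The PANK1 sequence holds 4 CCAAT matches, with first bases at positions -204, -125, -61 and -52 from the start site, and the last pair lies on opposite strands. Of 35116 RefSeq promoter windows of 300 bases, 34.6% held CCAAT and 0.991% held 4 or more matches. CCAAT was among several motifs counted in these windows, and the shares make no allowance for that choice. The window at the other PANK1 start site, 1355 bases from the start of the listed transcript, held 0 CCAAT matches and 1 GC box. The AFMID sequence of 83 bases holds 2 GC boxes. Of the windows, which are longer at 300 bases, 45.0% held at least 1 GC box and 26.7% held 2 or more. The 300-base window at the AFMID start site held 3 GC boxes, 1 CCAAT, 1 TATAAA and 1 AGGTCA. These are matches of letters and not measured binding.

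The introns of the pantothenate kinase genes also hold the precursors of a small family of miRNAs. The mature miRNAs are shown because PANK1, PANK2 and PANK3, the isoforms compared below, host near-identical copies. MIR107 lies at chr10:89592756-89592778 in an intron of the listed PANK1 transcript, MIR103A2 at chr20:3917541-3917563 in an intron of PANK2, and MIR103A1 at chr5:168560904-168560926 in an intron of PANK3 (mature arms, GRCh38.p14, RefSeq). Capitals mark the seed, bases 2 to 8 of the mature miRNA.
hsa-miR-107: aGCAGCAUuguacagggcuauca
hsa-miR-103a-3p: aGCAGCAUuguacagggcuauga
The mature sequences share the seed and differ at 1 position. By the labels the libraries were made from oligo(dT)-enriched mRNA, and 0 loci of the table are named for these precursors, so their levels were not measured here.

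In the CoA branch, transcripts of PANK1 and VNN1 were many times more abundant in KO, while PANK2 was not called. PANK1, which phosphorylates pantothenate and is the main isoform of liver, had 0.952, 0.606 and 1.06 FPKM in WT. In KO it had 6.03, 7.21 and 6.62 FPKM. All KO libraries lay above all WT libraries, and the group means of 0.872 ± 0.236 and 6.62 ± 0.591 FPKM (SD, n = 3 each) gave a linear ratio of 7.60. On the log2(FPKM + 1) scale used for all tests, which understates changes of low values, PANK1 rose by 2.03 (standard error, SE, 0.19, Benjamini-Hochberg adjusted p = 3.85e-05 from limma over all loci). The PANK1 locus (listed transcript on chromosome 10, 89582988 to 89643887, minus strand, 7 exons) went from percentile 1.40 to percentile 27.6 of the mean levels of all loci. Its gene is overlapped by an antisense gene and a pseudogene, and VNN1 by a pseudogene. The strand of the libraries is not given in the sources used here, so reads from overlapping genes cannot be told apart from these.

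VNN1, the pantetheinase anchored at the cell surface, showed the highest ratio of the 6 enzymes. Its locus (listed transcript on chromosome 6, 132681590 to 132714049, minus strand, 7 exons) had 0.340, 0.301 and 0.314 FPKM in WT, close to the bottom of the listed levels. In KO it had 6.19, 5.25 and 6.56 FPKM. The groups did not overlap, and the means of 0.318 ± 0.0199 and 6.00 ± 0.677 FPKM (SD, n = 3 each) gave a linear ratio of 18.9. The log2 fold change was 2.40 (SE 0.22, limma adjusted p = 3.5e-05), and 32 of 6357 loci rose by more on this scale. The lowest mean of any locus in the table was 0.414 FPKM, above the WT mean of VNN1, so VNN1 is in the table through its KO values and its test and ratio are conditional on them. Because both genes were low in WT, the pseudocount weighs on their fold changes, and with 0.1 in place of 1 the log2 fold changes were 2.82 for PANK1 and 3.86 for VNN1.

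PANK2, the pantothenate kinase found in mitochondria, was the exception. It had 9.05, 10.5 and 10.4 FPKM in WT, and in KO it had 5.76, 10.1 and 6.26 FPKM. KO replicate 2 lay within the WT range while the other KO libraries lay below it. The log2 fold change of -0.42 (SE 0.18) did not pass the limma test (adjusted p = 0.066). Without KO replicate 2 it was -0.65 (adjusted p = 0.00279), and in an ordinary linear model that includes Ballgown's library adjustment, here called the Ballgown-type model, it was -0.01 (adjusted p = 0.981), so the PANK2 value depends on 1 library and on the model. Values are per locus, and the transcript listed for PANK2 (chromosome 20, 3888934 to 3918789, plus strand, 6 exons) is annotated with 967 bases and with its mRNA end not found. The locus overlaps RNF24 and antisense genes on the other strand. The limit on overlapping genes thus holds for PANK2 too.

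**Figure D1:**
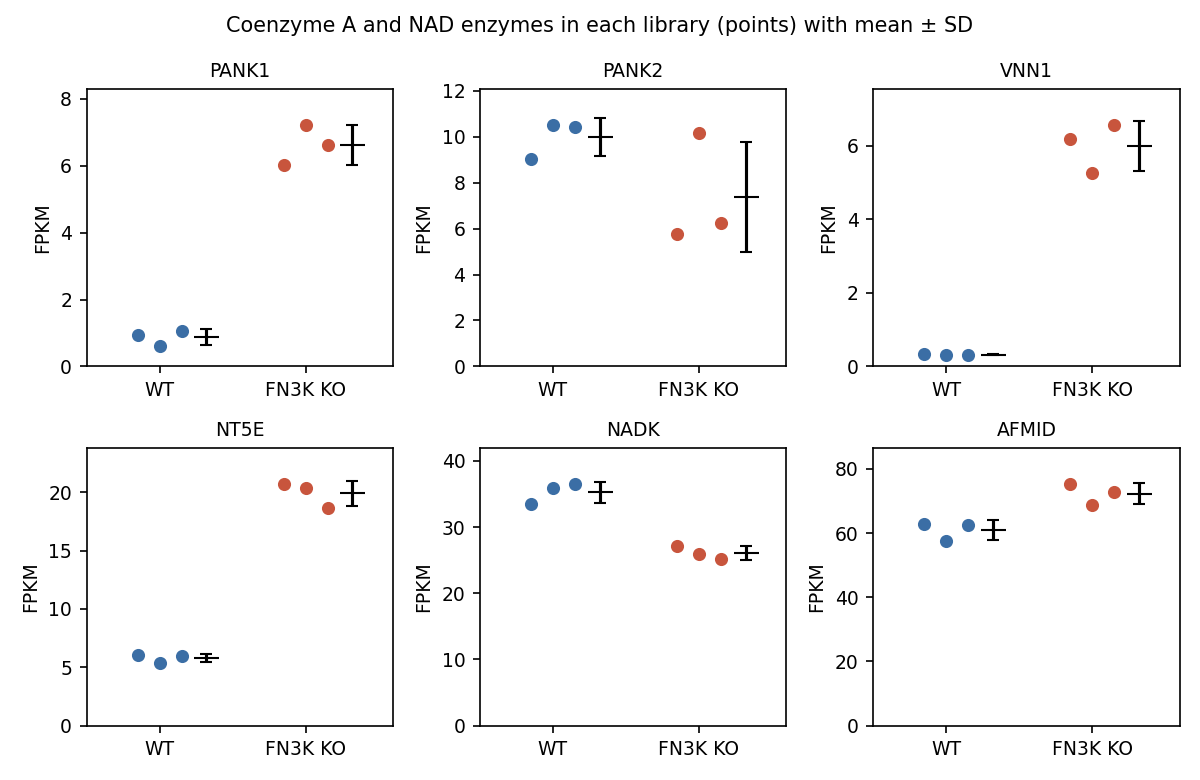
FPKM (vertical axes, linear, each from 0) of the 6 enzymes in the 3 WT libraries (blue) and 3 FN3K KO libraries (red), with the mean and SD of each group in black. All KO points lie above all WT points for PANK1, VNN1, NT5E and AFMID and below them for NADK, while KO replicate 2 of PANK2 lies among the WT points.

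The mix of pantothenate kinase transcripts was therefore different in KO. PANK3, the third listed isoform of the family, had 7.13, 8.29 and 8.45 FPKM in WT and 9.68, 10.4 and 9.74 FPKM in KO. Of the summed FPKM of the 3 isoforms, PANK1 made up 4.66% ± 1.34 in WT and 27.8% ± 1.69 in KO (SD, n = 3 each). PANK2 made up 53.1% ± 0.955 in WT and 30.3% ± 5.36 in KO. The share of PANK3 was 42.3% ± 0.570 in WT and 41.9% ± 3.91 in KO, and the KO range of 37.5% to 45.1% took in the whole WT range. PANK1 was the least abundant of the 3 isoforms per length in every WT library, and in KO replicates 1 and 3 it was above PANK2. These shares and ranks compare loci whose listed transcripts have 2703 (PANK1), 967 (PANK2, end not found) and 10506 bases (PANK3). The limit on overlapping genes given above holds here too, and PANK4 was not listed. The fall in the share of PANK2 is not a call, since PANK2 itself did not pass the limma test.

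The change of PANK1 was compared with that of PANK2 within each library. The log2 ratio of PANK1 to PANK2, each as FPKM + 1, was -2.56 ± 0.25 in WT and -0.10 ± 0.29 in KO (SD, n = 3 each), a difference of 2.45. All KO ratios were above all WT ratios (exact permutation test, two-sided, p = 0.10, which is the lowest a design of 3 against 3 can give). Leaving out 1 library at a time kept the difference between 2.31 and 2.62. The summed FPKM of the 3 isoforms was 18.8 ± 1.48 in WT and 24.0 ± 3.36 in KO, also without overlap (exact permutation p = 0.10).

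**Figure D2:**
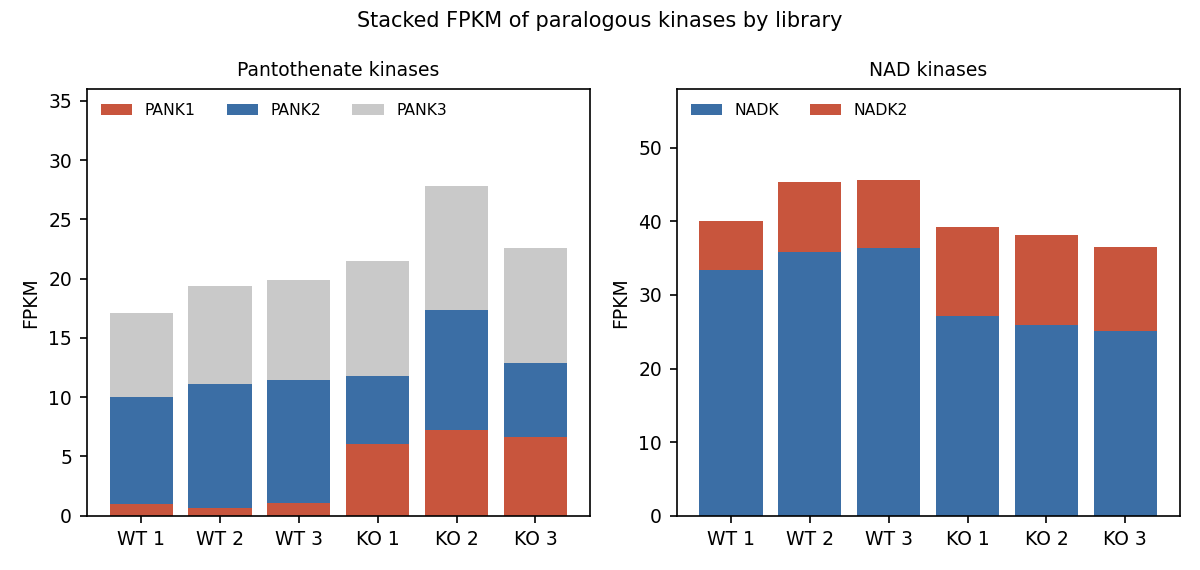
Stacked FPKM (vertical axes, linear, from 0) of the pantothenate kinases PANK1, PANK2 and PANK3 (left) and of the NAD kinases NADK and NADK2 (right) in each WT and KO library. The PANK1 segment is 0.606 to 1.06 FPKM high in WT and 6.03 to 7.21 FPKM in KO, and the NADK2 segment is taller in each KO library than in any WT library.

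In the NAD branch, NT5E and AFMID rose and NADK fell. NT5E, also known as CD73, removes phosphate from extracellular AMP and from nicotinamide mononucleotide, which yields adenosine and nicotinamide riboside. It had 6.01, 5.40 and 5.97 FPKM in WT and 20.7, 20.4 and 18.7 FPKM in KO. The groups were far apart, with means of 5.79 ± 0.339 and 19.9 ± 1.08 FPKM (SD, n = 3 each) and a linear ratio of 3.43. NT5E gave the lowest adjusted p of the 6 enzymes (log2 fold change 1.62, SE 0.08, limma adjusted p = 1.07e-06). The NT5E locus (listed transcript on chromosome 6, 85449584 to 85495791, plus strand, 8 exons) moved from percentile 21.9 to percentile 65.4 of all loci, and 83 loci rose by more. The RefSeq start site of NT5E lies 499 bases inside this transcript, so that its promoter window falls within the listed transcript, and the window held 2 GC boxes and 1 TGACG, a motif that 24.6% of windows held.

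NADK phosphorylates NAD to NADP in the cytosol. It had 33.4, 35.8 and 36.4 FPKM in WT and 27.2, 25.9 and 25.1 FPKM in KO. All KO libraries were below all WT libraries, and the linear ratio of the means was 0.740. The log2 fold change was -0.42 (SE 0.06, limma adjusted p = 0.000447). Over all 6357 loci the median was -0.14, and relative to it NADK was lower by -0.28. A lower log2 fold change than that of NADK was found for 25.2% of the loci. In the Ballgown-type model the NADK value was -0.36 and the call was lost (adjusted p = 0.0744), while in limma with the same adjustment it passed (adjusted p = 0.0193). The listed transcript of NADK spans 1751232 to 1778470 on the minus strand of chromosome 1 and has 12 exons.

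AFMID hydrolyses N-formylkynurenine to kynurenine on the route from tryptophan to NAD. It was the most abundant of the 6 enzymes per length in both groups, with 62.9, 57.5 and 62.6 FPKM in WT and 75.2, 68.8 and 72.8 FPKM in KO. The groups did not overlap, but the linear ratio of 1.18 was the closest to 1 of the enzymes called. The log2 fold change was 0.24 (SE 0.06, limma adjusted p = 0.00779), or 0.38 relative to the median of all loci, and 23.5% of the loci rose by more. With the library adjustment it was 0.17 and not called, in limma (adjusted p = 0.169) or in the Ballgown-type model (adjusted p = 0.271). The listed AFMID transcript lies on chromosome 17 from 78187317 to 78207701 on the plus strand and has 11 exons, 4.55 Mb from the start of FN3K on the same chromosome.

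Of the 6 enzymes, 5 had an adjusted p under 0.05 in limma, 4 of them higher and 1 lower in KO. Over all 6357 loci the percentage called was 57.7% in either direction, 21.2% for higher and 36.5% for lower loci, so a call by itself sets a gene apart from few others. By the stricter rule for DEGs, a limma p under 0.05 before adjustment together with a change beyond 1 on the log2 scale, PANK1, VNN1 and NT5E were called, all higher. That rule called 7.63% of all loci, 4.31% higher and 3.32% lower. The KO and WT values did not overlap for 5 of 6 enzymes, 4 higher and 1 lower, and for 63.4% of all loci, 23.6% higher and 39.8% lower. In the Ballgown-type model 3 enzymes were called, again PANK1, VNN1 and NT5E, and of the 1127 loci it called 606 were higher in KO, compared with 1348 of 3670 in limma. That model differs from limma both in the adjustment and in not sharing variance between loci. With the ordinary linear model alone 5 enzymes and 2938 loci were called (1103 higher), and with the adjustment alone, in limma, 4 enzymes and 2160 loci (1085 higher). VNN1 is among the enzymes counted as higher throughout this paragraph, though its test is conditional on its KO values, as given above.

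The order of the 6 levels per length also changed. In WT it ran AFMID, NADK, PANK2, NT5E, PANK1 and VNN1, and no neighbours in this order overlapped. In KO it ran AFMID, NADK, NT5E, PANK2, PANK1 and VNN1. NT5E and PANK2 had thus changed places, and the ranges of PANK2, PANK1 and VNN1 met, with overlap between PANK2 and PANK1 and between PANK1 and VNN1.

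**Figure D3:**
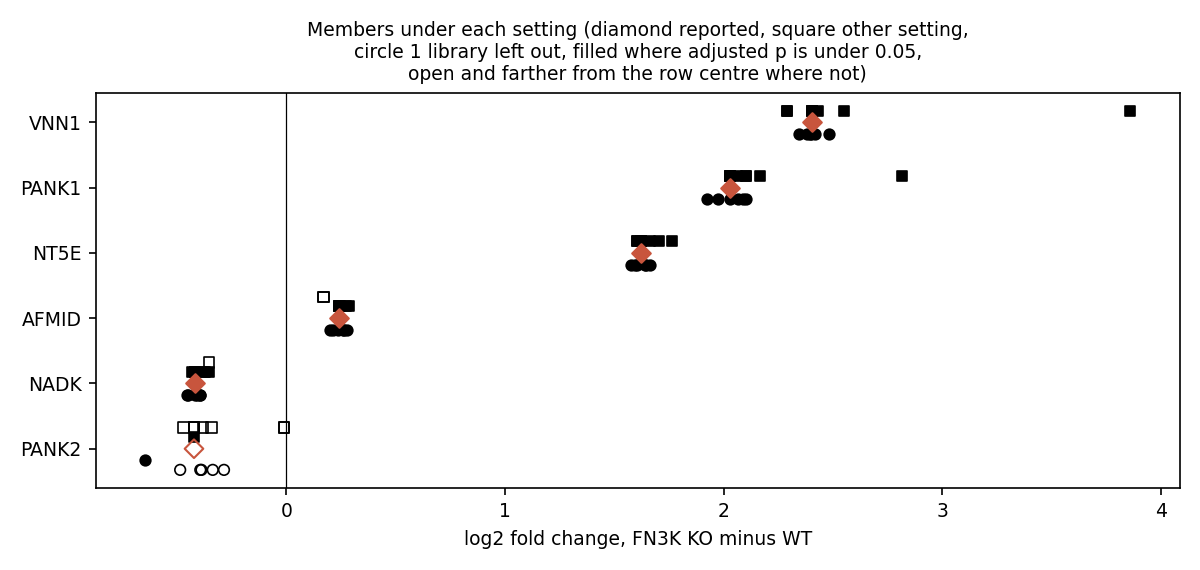
Log2 fold change, KO minus WT (horizontal axis), of the 6 enzymes as reported (diamonds), under other settings (squares) and with 1 library left out (circles), filled where the adjusted p was under 0.05. PANK1, VNN1 and NT5E stay right of 1.5 and filled, NADK is open in the Ballgown-type model and AFMID in both models with the library adjustment, and PANK2 ranges from -0.65 to -0.01.

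The other genes of these pathways were followed in 13 lists, of which 37 of 102 genes were listed by name. Apart from the 6 enzymes, 31 genes were listed, of which 16 were called higher, 6 were called lower and 9 did not pass the limma test. The 71.0% called compares with 57.7% of all loci, and the median log2 fold change of 0.29 with -0.14. Genes absent from the named loci are not analysed here. In the Ballgown-type model 7 of these genes were called, 6 higher and 1 lower, and all 7 were among the 22 called in limma (PANK3, NUDT8, NAMPT, PNP, AOX1 and SLC29A1 higher, MTHFD1L lower). The ordinary linear model alone called 17 and the adjustment alone, in limma, 15.

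In CoA synthesis, 5 of 8 genes were listed, 3 were called higher (PANK1, PANK3 and PPCS), 0 lower, and the median log2 fold change was 0.29. The 60.0% called is close to the 57.7% of all loci, of which 21.2% were called higher and 36.5% lower. PPCS, which joins cysteine to phosphopantothenate in the step after the kinases, had 7.61, 7.64 and 7.92 FPKM in WT and 12.1, 11.9 and 13.7 FPKM in KO. It rose by 0.63 on the log2 scale (SE 0.08) and was not called in the Ballgown-type model (adjusted p = 0.0555). PANK3 rose by 0.29 (SE 0.09, limma adjusted p = 0.0229), which was not called when KO replicate 1, KO replicate 2 or WT replicate 1 was left out (log2 fold change 0.31, 0.26 and 0.22). DCAKD, named for its likeness to the dephospho-CoA kinase of the last step, had a log2 fold change of -0.01 (adjusted p = 0.97), with 3.05 FPKM in KO replicate 2 and 5.57 and 6.89 FPKM in the others. In KO replicate 2 both uncalled genes of this list, PANK2 and DCAKD, thus stood apart from the other KO libraries, PANK2 above them and DCAKD below.

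On the breakdown side of CoA, 2 of 6 genes were listed and both were called higher, with VNN1 joined by NUDT8. Of all loci, 21.2% were called higher. The VNN1 call is conditional on its KO values, as given above. NUDT8, a mitochondrial hydrolase that cleaves CoA, had 10.8, 10.3 and 11.6 FPKM in WT and 17.9, 17.8 and 19.2 FPKM in KO, a log2 fold change of 0.70. Of the 4 genes for transport and transfer, AASDHPPT, which moves phosphopantetheine from CoA onto carrier proteins, was listed and had a log2 fold change of -0.22, or -0.086 relative to the median of all loci. This call was lost without KO replicate 1 (log2 fold change -0.22), without WT replicate 2 (-0.20) and with quantile normalization (-0.16).

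All 5 listed genes of NAD synthesis were called higher, compared with 21.2% of all loci, but 3 of the calls, those of HAAO, NAMPT and NADSYN1, were lost when single libraries were left out. On the route from tryptophan, 2 of 12 genes were listed, AFMID and HAAO, and HAAO, the dioxygenase that forms the precursor of quinolinate, had 4.42, 6.56 and 3.29 FPKM in WT and 6.86, 9.19 and 9.53 FPKM in KO. Its log2 fold change of 0.75 (SE 0.21, limma adjusted p = 0.0126) was not called without KO replicate 2 (0.70, adjusted p = 0.0537) or KO replicate 3 (0.68, adjusted p = 0.053). On the routes from nicotinate, nicotinamide and their ribosides, 3 of 9 genes were listed. PNP, a phosphorylase of purine nucleosides that also splits nicotinamide riboside, had 6.80, 7.33 and 6.88 FPKM in WT and 15.4, 15.8 and 16.3 FPKM in KO. It rose by 1.07 (SE 0.07) and was the 1 DEG among the 31 genes.

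NAMPT, the rate-limiting enzyme of NAD salvage from nicotinamide, rose by 0.30 on the log2 scale (limma adjusted p = 0.0241). The NAMPT call was lost without KO replicate 1, KO replicate 2 or WT replicate 1 (log2 fold change 0.29, 0.27 and 0.22). NADSYN1, the NAD synthetase of the last step from nicotinate and tryptophan, rose by 0.27 (limma adjusted p = 0.0277), and lost its call without KO replicate 1, KO replicate 3 or WT replicate 2 (0.26, 0.25 and 0.22). In the Ballgown-type model HAAO (0.75, adjusted p = 0.362) and NADSYN1 (0.22, adjusted p = 0.274) had similar fold changes but, like AFMID, were not called.

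**Figure D4:**
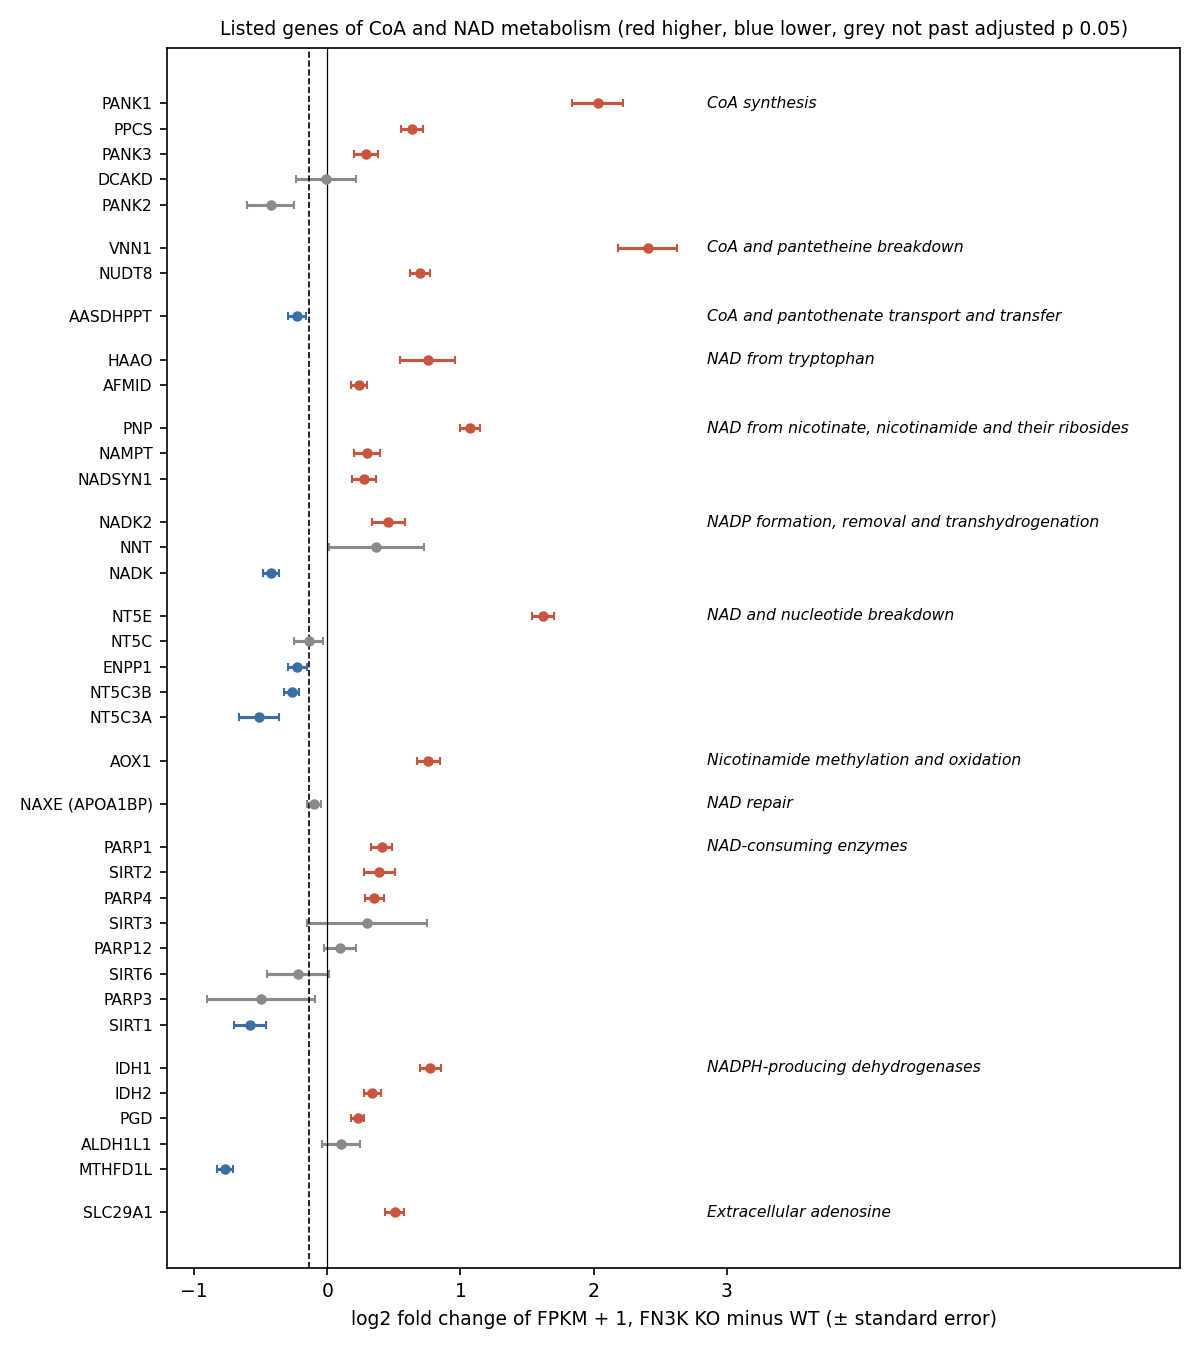
Log2 fold change of FPKM + 1, KO minus WT, with its standard error (horizontal axis) for the 37 listed genes of CoA and NAD metabolism, grouped by list, in red where higher, blue where lower and grey where not past an adjusted p of 0.05. The dashed line is the median of all loci at -0.14, and VNN1, PANK1, NT5E and PNP lie beyond 1.

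The pair of NAD kinases moved in opposite directions. NADK2, the mitochondrial NAD kinase, had 6.70, 9.54 and 9.24 FPKM in WT and 12.1, 12.2 and 11.4 FPKM in KO. It rose by 0.46 (SE 0.12, limma adjusted p = 0.0114), while NADK fell by 0.42. In the Ballgown-type model NADK2 had a larger log2 fold change of 0.76 and was not called (adjusted p = 0.0676), nor was NADK (adjusted p = 0.0744). NADK2 was also not called in the ordinary linear model without the adjustment (0.46, adjusted p = 0.0691). With single libraries left out, the log2 fold change of NADK2 ranged from 0.31 to 0.54. NADK made up 80.7% ± 2.31 of the summed FPKM of both in WT and 68.6% ± 0.651 in KO (SD, n = 3 each), and the sum was 43.7 ± 3.12 and 38.0 ± 1.38 FPKM. The log2 ratio of NADK2 to NADK, a comparison chosen after the values were seen, was -1.94 ± 0.19 in WT and -1.07 ± 0.04 in KO, with no overlap (two-sided exact permutation p = 0.10). NNT, the mitochondrial transhydrogenase, had a log2 fold change of 0.37 and did not pass (adjusted p = 0.393).

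In the list of NADPH-producing dehydrogenases, 5 of 11 genes were listed, 3 were called higher, 1 lower and 1 (ALDH1L1) not, with a median log2 fold change of 0.23. IDH1, IDH2 and PGD, dehydrogenases of isocitrate and phosphogluconate, rose by 0.77, 0.34 and 0.23. MTHFD1L, a mitochondrial enzyme of folate metabolism and the 1 gene called lower, fell by 0.77, from a mean of 25.2 FPKM in WT to 14.4 FPKM in KO. It is a formate-tetrahydrofolate ligase and does not itself form NADPH. Over all loci, 21.2% were called higher and 36.5% lower. In the Ballgown-type model IDH1, IDH2 and PGD were not called (adjusted p = 0.0626, 0.124 and 0.0693), while MTHFD1L was (adjusted p = 0.0201).

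NT5E was the 1 gene of its list called higher. Among 13 genes of extracellular and cytosolic NAD and nucleotide breakdown, 5 were listed, 3 were called lower and 1, NT5C, was not called, with a median log2 fold change of -0.23. Of all loci, 21.2% were called higher and 36.5% lower. ENPP1, a surface pyrophosphatase that splits NAD and ATP and so acts upstream of NT5E, had 20.4, 22.6 and 22.2 FPKM in WT and 19.6, 18.5 and 17.2 FPKM in KO. Its log2 fold change was -0.23 (limma adjusted p = 0.0238), or -0.088 relative to the median of all loci. The call was lost with quantile normalization (-0.16), without KO replicate 2 or 3 and without WT replicate 2 or 3 (-0.23, -0.18, -0.20 and -0.21). The ratio of NT5E to ENPP1 in FPKM was 0.239 to 0.294 in WT and 1.05 to 1.10 in KO. NT5C3A and NT5C3B, nucleotidases of the cytosol, fell by 0.51 and 0.27, and NT5C3A was not called without KO replicate 3, WT replicate 2 or WT replicate 3 (-0.42, -0.46 and -0.42).

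Listed genes for uptake of adenosine and oxidation of nicotinamide were higher. SLC29A1, the nucleoside transporter ENT1, was the 1 listed gene of 8 for extracellular adenosine and had 10.8, 10.1 and 11.3 FPKM in WT. In KO it had 15.2, 16.1 and 15.7 FPKM, a log2 fold change of 0.51. AOX1, which oxidises methylated nicotinamide, had 10.6, 12.5 and 12.3 FPKM in WT and 20.9, 21.9 and 19.0 FPKM in KO, a rise of 0.76 (SE 0.09). The KO values of both genes lay above all WT values.

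**Figure D5:**
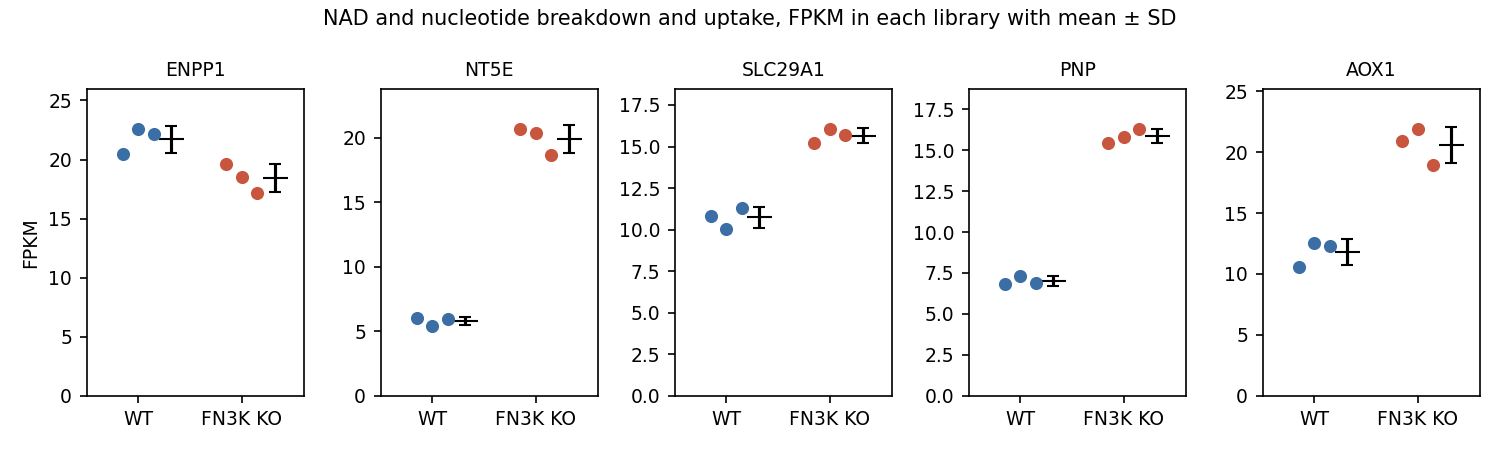
FPKM (vertical axes, linear, each from 0) in each WT (blue) and KO (red) library, with the mean and SD of each group in black, for ENPP1, NT5E, SLC29A1, PNP and AOX1. ENPP1 is lower in KO than in WT, at means of 21.7 and 18.4 FPKM, and the other genes are higher.

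Enzymes that consume NAD were mixed. Of 20 sirtuins and poly(ADP-ribose) polymerases, 8 were listed, 3 were called higher, 1 lower and 4 not, with a median log2 fold change of 0.20. SIRT1, a nuclear deacetylase, fell by 0.58, from a mean of 7.15 FPKM in WT to 4.47 FPKM in KO. With the library adjustment SIRT1 was at -0.46 and not called, in limma (adjusted p = 0.0873) or in the Ballgown-type model (adjusted p = 0.142). PARP1, the main polymerase of the DNA damage response, rose by 0.41, from 21.1 to 28.4 FPKM. PARP4 and the cytosolic deacetylase SIRT2 rose by 0.35 and 0.39, and SIRT2 was not called without KO replicate 2, KO replicate 3 or WT replicate 3 (0.36, 0.33 and 0.29). PARP1 and PARP4 were not called in the Ballgown-type model (adjusted p = 0.061 and 0.0913). SIRT3, SIRT6, PARP3 and PARP12 did not pass. In limma with the library adjustment SIRT3 was called higher (1.69, adjusted p = 0.0146), while without WT replicate 1 its log2 fold change was -0.20. For the repair of damaged NADH and NADPH, 1 of 2 genes was listed, NAXE under its older name APOA1BP, and its log2 fold change was -0.10 (adjusted p = 0.127). Of the mitochondrial NAD carriers, 0 of 2 were listed.

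The listed neighbours of the 6 enzymes were compared to see whether the changes extended along the chromosomes. TK1, the thymidine kinase of the cytosol, starts 84 bases from AFMID on the opposite strand, across the region shown above. It had 8.07, 7.56 and 8.15 FPKM in WT and 13.3, 14.4 and 13.9 FPKM in KO, a log2 fold change of 0.74 (SE 0.08, limma adjusted p = 6.4e-05). Both genes of this head-to-head pair were thus higher in KO, TK1 by more than AFMID. With the library adjustment AFMID was not called, as given above, while TK1 kept its call (Ballgown-type model, adjusted p = 0.0258). On either side of the pair, SYNGR2 had a log2 fold change of 0.10 (limma adjusted p = 0.16) and BIRC5 fell by 0.42 (limma adjusted p = 0.00962).

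The nearest listed neighbours of NT5E, NADK and PANK2 did not pass the test, while several farther ones did. SNX14, 55.4 kb from NT5E, had a log2 fold change of -0.08 (limma adjusted p = 0.44). GNB1, 34.1 kb from NADK, had one of -0.11 (adjusted p = 0.13), and MAVS, 41.9 kb from PANK2, one of 0.07 (adjusted p = 0.506). The other listed neighbours of NADK were called lower, as NADK was, with log2 fold changes of -0.35 (CDK11B), -0.51 (MIB2) and -0.58 (FAAP20). Of all loci, 36.5% were called lower. The CDK11B call was lost with quantile normalization and without KO replicate 1, WT replicate 1 or WT replicate 2. The MIB2 call was lost without KO replicate 2 or 3 and without WT replicate 2 or 3. With the library adjustment, in limma as in the Ballgown-type model, none of these neighbours was called. SMOX (-0.82), 260 kb from PANK2, and PRNP (-0.50), 798 kb from it, were called lower too. CDC25B, closer to PANK2 at 102 kb, was not called (-0.17, limma adjusted p = 0.181). RPS12, 134 kb from VNN1 and a ribosomal protein gene, fell by 1.11 while VNN1 rose. CTGF, 733 kb from VNN1, also fell by 1.11, a call lost in the Ballgown-type model (adjusted p = 0.0777). BCLAF1, farther from VNN1, was not called (-0.11, limma adjusted p = 0.201). SNHG5, 227 kb from NT5E, fell by 1.36 while NT5E rose. Farther from NT5E, PGM3 was called higher (0.32) and IBTK lower (-0.23), and both calls were lost when single libraries were left out. No listed gene lay within 1 Mb of PANK1, and beyond it ANKRD1 (1.29) and GLUD1 (0.41) were called higher and ATAD1 (-0.35) lower. Of the flanking loci, 16 of 24 were called, compared with 57.7% of all loci.

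The loci whose pattern was most like each enzyme were taken as those with the smallest Euclidean distance between centred log2(FPKM + 1) profiles over the 6 libraries, among 4895 named loci. For VNN1 these were FDFT1 (squalene synthase), at a distance of 0.184, KNG1 (kininogen), at 0.234, and TXNIP (thioredoxin-interacting protein), at 0.245. For PANK1 they were PIK3IP1 at 0.282, ABHD4 at 0.285 and S100A6 at 0.306. For NT5E they were ASRGL1 at 0.184, ACLY (ATP citrate lyase, which forms cytosolic acetyl-CoA) at 0.206 and MCM6 at 0.209.

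NADK had the closest matches of the 6 enzymes, TES at 0.0506, DDX50 at 0.0563 and EMC2 at 0.0647, all changes of modest size like its own. For AFMID they were OXA1L at 0.0695, NADSYN1 at 0.0737 and TMEM219 at 0.0910, so that another enzyme of NAD synthesis stood among its nearest loci. For PANK2 they were PPP3CA at 0.169, RNASEH1-AS1 at 0.229 and D2HGDH at 0.256. Such likeness over 6 libraries in 2 groups mostly restates a similar fold change between the groups.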

How the data were processed

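RNA-seq libraries of 3 WT and 3 FN3K KO HepG2 plates were compared. The authors mapped reads with HISAT2, assembled transcripts with StringTie (version 2.0.6, build GRCh38.p5, both from the submitters' processing notes) and deposited FPKM per locus. The RNA is called total RNA in the paper and oligo(dT)-enriched mRNA in the labels. Low FPKM values did not step by whole reads, so depth is unknown and no counting interval was computed. FPKM summed to 289983 to 314164 per library. The table was filtered by the authors in a way not given in the sources used here, and its lowest locus mean was 0.414 FPKM.

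All 6357 loci were tested on log2(FPKM + 1) with limma 3.58.1 in R 4.3.3 (eBayes with a variance trend), with Benjamini-Hochberg adjustment over all of them. The code was tested on simulated data. Ratios and shares were compared with exact two-sided permutation tests. The alternatives tried were quantile normalization or a common 75th percentile, a pseudocount of 0.1, only loci with a mean of 1 FPKM or more, no variance trend, a block for the replicate number, leaving out single libraries, and an ordinary linear model with Ballgown's library adjustment (the Ballgown-type model). The last was also split into its 2 parts, which was chosen after seeing the data. The 6 enzymes and the pathway lists were chosen with earlier results of these data known, and 1 gene of these lists is not reported here. Genes named were the enzymes, list genes past an adjusted p of 0.05 without overlap of the groups or needed to account for a list, 2 listed loci on each side of each enzyme, and the 3 nearest profiles. Coordinates are from GENCODE 29 (GRCh38), matched by transcript for 4892 of the loci. Promoters and miRNAs are from RefSeq (GRCh38.p14), where 5 of the 6 enzymes had a promoter entry. Figures were drawn with matplotlib 3.10.9, and tables made with Python 3.11.15, scipy 1.17.1, numpy 2.4.6 and pandas 2.3.3.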

Additional observations from a re-analysis of the deposited data

How the results depend on the processing

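The directions of PANK1, VNN1, NT5E, NADK, AFMID and PANK2 were the same under every alternative run. The ordinary linear model with library adjustment moved the counts of adjusted calls most: it called 1127 loci (606 higher), 3 enzymes, 7 list genes instead of 22 and 6 flanking loci instead of 16, with AFMID at 0.17 (adjusted p = 0.271), NADK at -0.36 (adjusted p = 0.0744) and PANK2 at -0.01. Its parts were run singly after the data had been seen: limma with the adjustment called 2160 loci and 10 flanking loci, with AFMID at 0.17, and the ordinary linear model without it 2938 loci and 12 flanking loci. A pseudocount of 0.1 gave 638 DEGs instead of 485 and raised the log2 fold changes to 2.82 (PANK1), 3.86 (VNN1) and 1.76 (NT5E), and the difference of the PANK1 to PANK2 log2 ratio to 3.29.

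Whether the replicate numbers pair the samples could not be decided. Deviations of same-numbered libraries correlated at only 0.0096, 0.0061 and 0.0458, yet 4 of 6 libraries correlated best with their own number in the other group. With the number as a block PANK2 stayed at -0.42 but passed the threshold (adjusted p = 0.0225), so that 6 enzymes were called.

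With each library left out in turn, 3090 to 3575 loci were called, 1194 to 1261 of them higher, with 462 to 531 DEGs, 5 to 6 enzymes, 17 to 20 list genes and 11 to 17 flanking loci. The log2 fold changes were 1.92 to 2.10 (PANK1), 2.35 to 2.48 (VNN1), 1.58 to 1.66 (NT5E), 0.20 to 0.28 (AFMID), -0.46 to -0.39 (NADK) and -0.65 to -0.29 (PANK2), the lowest of these (adjusted p = 0.00279) without KO replicate 2.

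Changes of sign were found only for genes that did not pass the test. DCAKD was 0.030 with the common 75th percentile and 0.082 with quantile normalization. NT5C (0.16), PGS1 (0.15), RPP30 (-1.22) and SNX14 (0.084) changed sign with the library adjustment, in limma as in the ordinary linear model. With single libraries left out, DCAKD ranged from -0.22 to 0.27, RPP30 from -0.64 to 0.54, MAVS from -0.0052 to 0.12 and SIRT3 from -0.20 to 0.57. Depth, which is not known, limits what can be said of PANK1 and VNN1 in WT, both near the lowest listed values.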
